A study of Mus musculus with 11 samples.

Results

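The 40 axon guidance genes described here were chosen by name out of 55401 genes listed, with earlier results of these data known. They are 6 secreted and 5 membrane-bound semaphorins, 6 plexins, 2 neuropilins, 2 netrins, 4 netrin receptors, 6 Eph receptors, 6 ephrins and 3 collapsin-response proteins. They were read in sensory neurons of the mouse trigeminal ganglion, which serves the face and mouth, labelled from their endings with the retrograde dye DiI and sorted by fluorescence. The MOC1 libraries came from mice bearing tumours of MOC1, a mouse oral squamous carcinoma cell line (3 from females, 3 from males). The sham libraries came from control mice injected with DiI (3 from females, 2 from males). Ganglia of both sides were taken. No mouse strain, age or time after implantation was used here, since the labels analysed give none, and nothing in them ties a library to 1 animal, so p-values measure the spread between libraries.

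Guidance cues steer growing axons by attraction and repulsion. Secreted class 3 semaphorins act mostly through neuropilins paired with class A plexins, whereas membrane-bound semaphorins bind plexins directly. Netrins attract axons through Dcc and repel them through Unc5 receptors. Eph receptor tyrosine kinases bind ephrins on neighbouring cells, and ephrins of the B class can signal back into the cell that carries them. Collapsin-response proteins are cytosolic microtubule-binding proteins that act downstream of semaphorin receptors. Many of these genes remain expressed in adult sensory neurons and in the glia around them.

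Each library held 10757426 to 16703797 counts in genes. All 20 pan-neuronal markers were present in every library, and they summed to 15823 ± 798 CPM (counts relative to a common library total) in MOC1 libraries (SD, n = 6) against 13337 ± 1160 CPM in sham (SD, n = 5; adjusted p = 0.00649, two-sided exact permutation test). The 17 markers of satellite glia, which ensheathe the neuronal somata, summed to 3674 to 6476 CPM in MOC1 libraries and 10194 to 11761 CPM in sham libraries, without overlap (adjusted p = 0.00433, same test). Schwann cell markers summed to 970 ± 60.9 CPM in MOC1, against 1306 ± 113 CPM in sham, and fibroblast markers to 74.8 ± 5.01 CPM in MOC1, against 152 ± 34.5 CPM in sham (adjusted p = 0.00433 for each, same test, with Dpt at 0 in all 11 libraries). Of the 14 Schwann cell markers 5 were called lower, with a median log2 fold change of -1.0, while Pmp22, which held much of the sum, stood at 0.07 ± 0.07. Of the 9 fibroblast markers tested 2 were called lower, with 7 below 0, 2 above 0 and a median of -0.78. Much of the fibroblast sum was Col1a2, with 2864 counts over the MOC1 and 6584 over the sham libraries. Endothelial and mural markers summed to 185 to 321 CPM in MOC1 libraries and 241 to 1472 CPM in sham libraries (adjusted p = 0.0961), and macrophage markers to 18.3 ± 6.34 CPM in MOC1, against 19.5 ± 9.32 CPM in sham (adjusted p = 0.853, both by the same test). The highest endothelial sum was in sham female 1. MOC1 female 3, MOC1 male 2 and MOC1 female 2 had the fewest genes with a count, at 14180, 15327 and 16043. In bulk RNA, fewer cells of a type and less RNA per cell cannot be told apart.

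Of the 40 guidance genes, 39 had enough counts to test, and 4 of these differed between MOC1 and sham libraries at an adjusted p of 0.05 (edgeR quasi-likelihood test with Benjamini-Hochberg adjustment over 16817 genes). Sema4f and Plxna4 were higher in MOC1, and Sema3b and Efnb1 were lower. Across all genes tested, 2.34% were called higher and 4.28% lower, or 6.62% in either direction, against 5.13% higher and 5.13% lower among the guidance genes. In either direction 10.3% of the guidance genes tested were called. With only 4 calls, these shares cannot be told apart from those of all genes. The other 35 did not pass, 6 of the 39 had an unadjusted p under 0.05 where 18.5% of all genes did, and the log2 fold change was above 0 for 16 and below 0 for 23. The median log2 fold change was -0.11 for the guidance genes and -0.03 for all genes. The 4 called genes were also the 4 whose MOC1 and sham libraries did not overlap, a pattern seen in 6.33% of all genes (2.15% with MOC1 above and 4.18% with MOC1 below). The largest changes by size among the uncalled genes, such as Efna3 at 1.15 ± 1.35 (log2 fold change ± SE) and Ntn1 at -1.30 ± 1.17, belonged to genes with few counts.

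**Figure D1:**
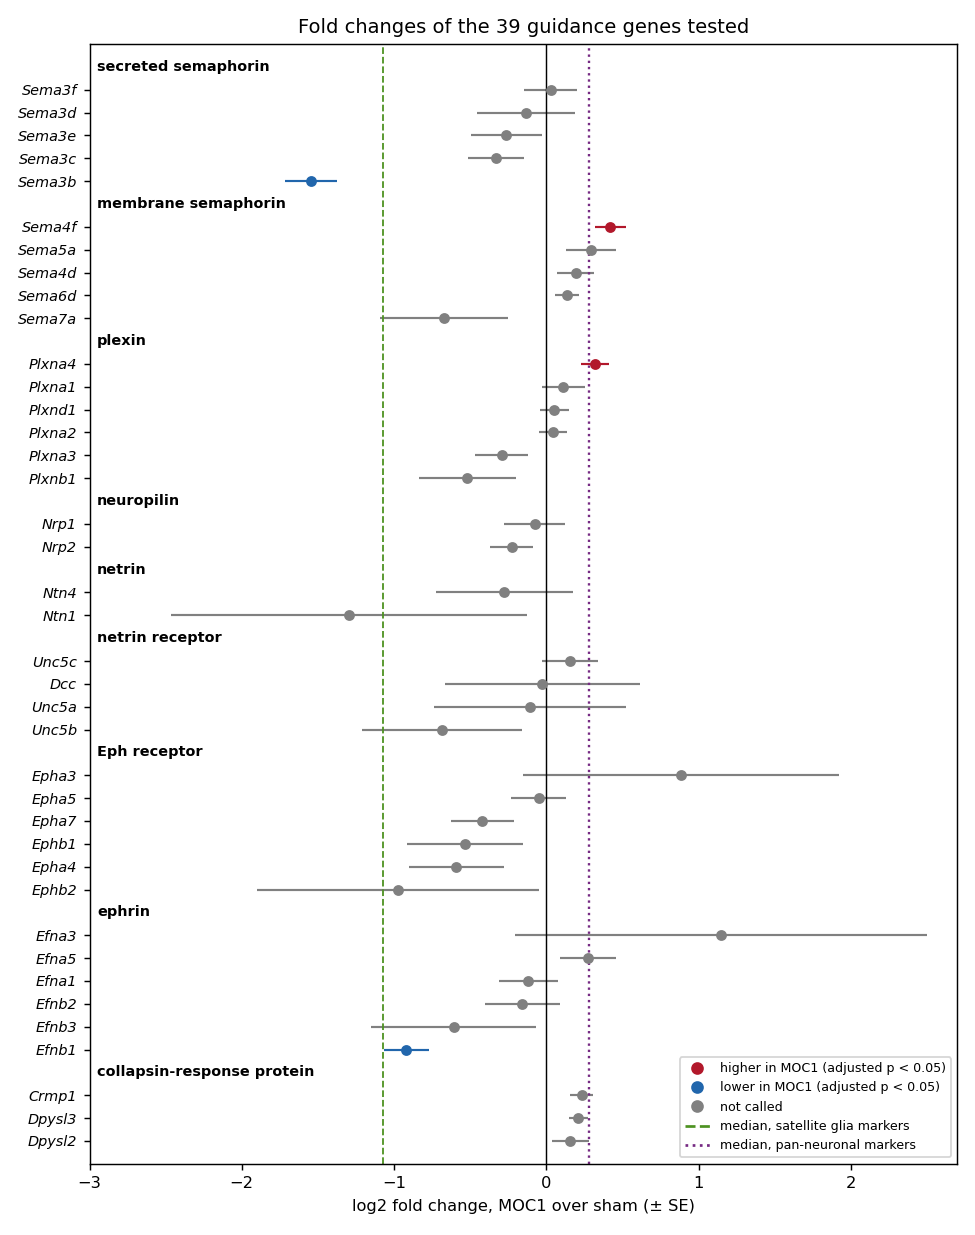
Log2 fold change of MOC1 over sham (horizontal axis, ± SE) for the 39 guidance genes tested, grouped by role, with called genes in red (higher) and blue (lower). Sema3b (-1.55) and Efnb1 (-0.92) lie to the left, Sema4f (0.42) and Plxna4 (0.32) to the right, and the dashed and dotted lines mark the medians of the satellite glia markers (-1.08) and pan-neuronal markers (0.28).

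Levels were compared between genes as CPM per kilobase of annotated exon. The collapsin-response genes Dpysl3 and Dpysl2 headed the list in both groups, Dpysl3 at 133 CPM per kb in MOC1 and 115 in sham libraries and Dpysl2 at 47.4 in MOC1 and 42.3 in sham. Plxnd1, the plexin that binds Sema3e, had rank 3 in both groups, at 33.8 CPM per kb in MOC1 libraries and 32.8 in sham. Among the semaphorins, Sema3b averaged 11.1 CPM per kb in MOC1 libraries, where it had rank 9, and 32.5 in sham libraries, where it had rank 4. At the other end Epha3, Efna3, Ntn1, Dcc, Unc5b and Ephb2 lay under 1 CPM per kb in both groups. Neighbours in this order mostly could not be separated, since only 3 of 39 neighbouring pairs in MOC1 and 4 of 39 in sham libraries had ranges that did not overlap.

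**Figure D2:**
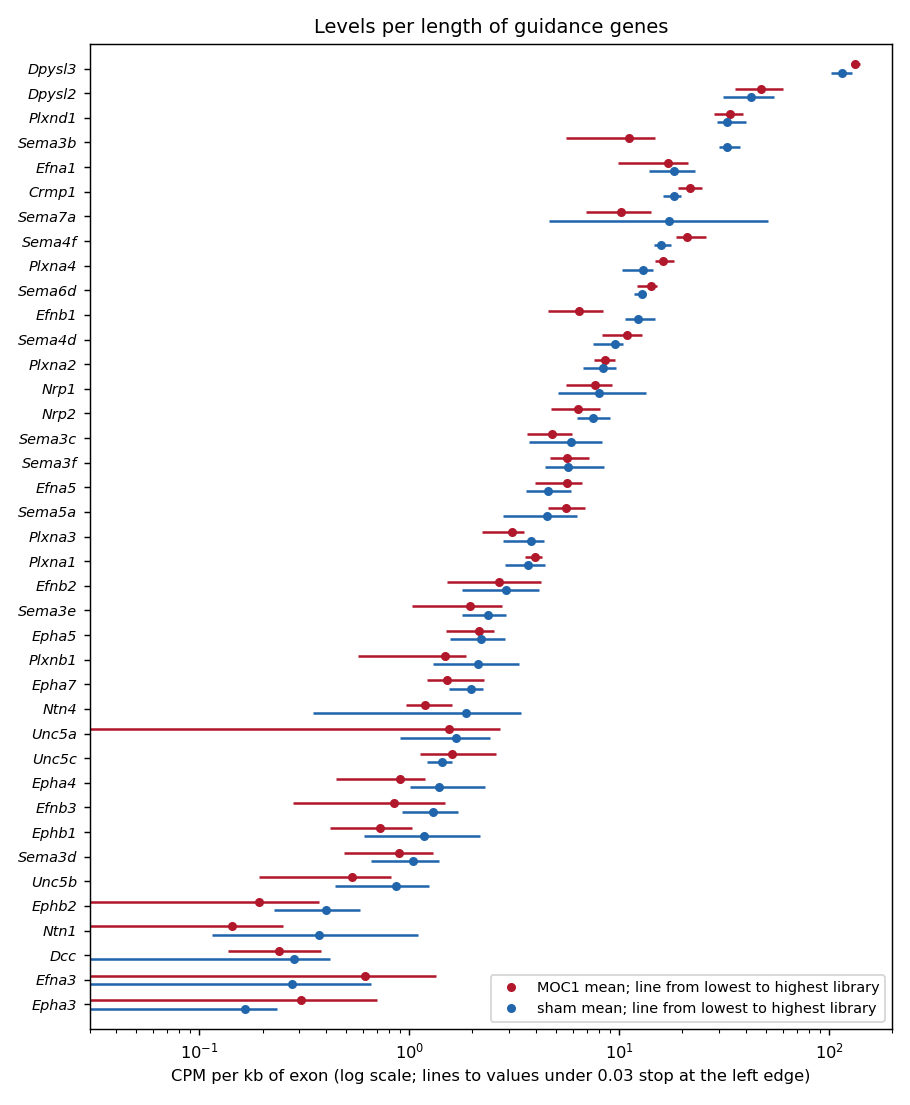
Level of each tested guidance gene in CPM per kb of exon (horizontal log axis) as the mean of MOC1 (red, n = 6) and sham libraries (blue, n = 5), with lines from the lowest to the highest library. Dpysl3 is highest in both groups, and the Sema3b and Efnb1 ranges of MOC1 libraries lie wholly below those of sham libraries.

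Among the 5 secreted semaphorins tested, Sema3b fell in MOC1 and the other 4 did not pass. Sema3b encodes a class 3 semaphorin, and the gene lies on the minus strand of mouse chromosome 9 (chr9:107597674-107609229, GRCm38). It had 70.6, 59.7 and 26.7 CPM in MOC1 females 1 to 3 and 45.7, 63.7 and 52.8 CPM in MOC1 males 1 to 3, against 143.1, 179.7 and 149.9 CPM in sham females 1 to 3 and 148.3 and 154.6 CPM in sham males 1 and 3. Every MOC1 library was below every sham library, with MOC1 female 3 the lowest. The means were 53.2 ± 15.6 CPM in MOC1 (SD, n = 6), against 155.1 ± 14.3 CPM in sham (SD, n = 5), a 0.343-fold level (log2 fold change -1.55 ± 0.17 SE, edgeR adjusted p = 1.49e-05).

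The decrease of Sema3b was of like size in both sexes. It was -1.59 ± 0.24 in females and -1.49 ± 0.26 in males on the log2 scale, with adjusted p of 0.000756 and 0.00534, and the test of the difference gave an unadjusted p of 0.767 (edgeR). Of the per-kb level summed over the 11 semaphorins, Sema3b held 12.9% ± 3.54 in MOC1 libraries (SD, n = 6) and 31.0% ± 5.75 in sham libraries (SD, n = 5). Of the 17 satellite glia markers 13 were called lower in MOC1, with a median of -1.08. The marker that fell most stood at -1.54, near Sema3b at -1.55. Scaled to the sum of those markers, Sema3b was still lower in MOC1 (log2 fold change -0.49, edgeR adjusted p = 0.00925). With the summed glial markers as a covariate in the fit, Sema3b stood at 0.13 with an adjusted p of 0.931, and no gene of the 16817 was called there by edgeR (1309 genes and 2 guidance genes had an unadjusted p under 0.05). The glial sum does not overlap between the groups, so that fit cannot separate the marker level from the tumour.

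**Figure D3:**
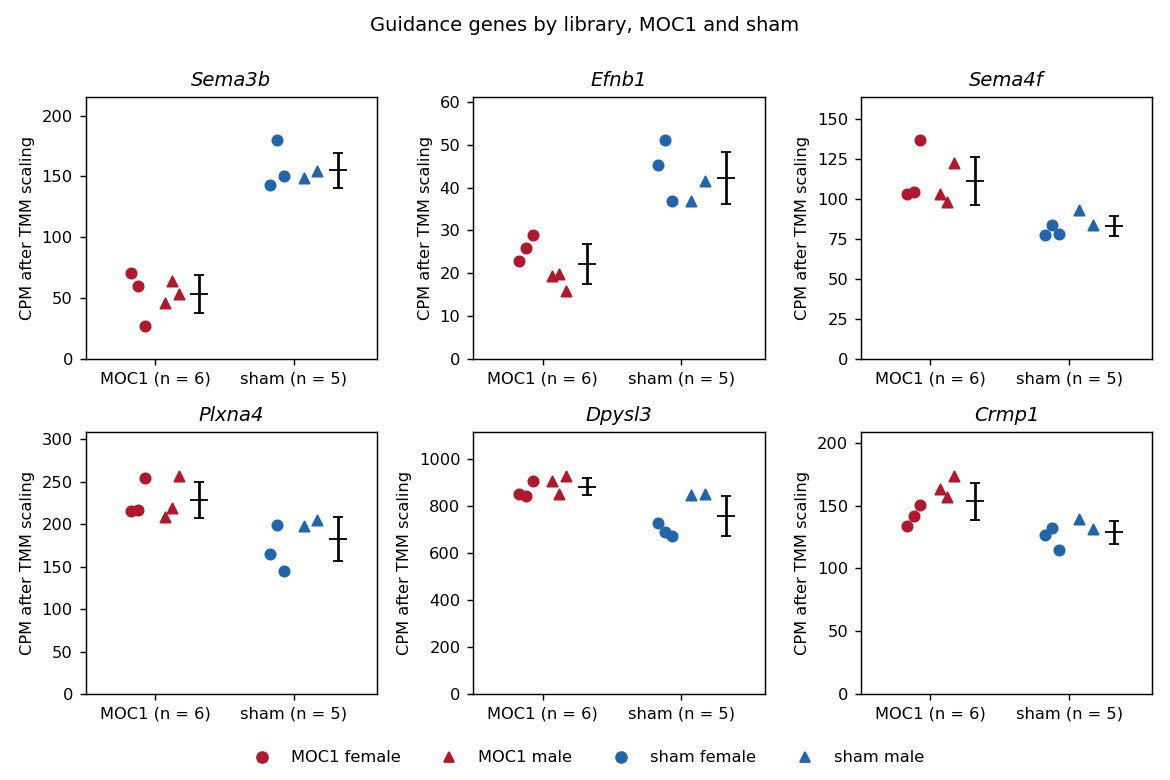
CPM after TMM scaling (vertical axes, starting at 0) of single guidance genes in each MOC1 (left) and sham library (right), with a different marker for each sex and bars for the mean ± SD. The 6 MOC1 libraries of Sema3b lie between 26.7 and 70.6 CPM, below all 5 sham libraries at 143.1 to 179.7 CPM.

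Sema3f, a ligand of neuropilin 2 that lies 72.3 kb from Sema3b on chromosome 9, averaged 29.3 ± 5.17 CPM in MOC1, against 29.5 ± 8.34 CPM in sham (log2 fold change 0.03 ± 0.18). Gnai2, which lies between Sema3b and Sema3f, did not pass either (-0.10 ± 0.08, adjusted p = 0.598 by edgeR). Sema3c averaged 34.1 ± 5.89 CPM in MOC1, against 41.9 ± 12.4 CPM in sham (log2 fold change -0.33 ± 0.18). Sema3e, the ligand of Plxnd1, stood at -0.26 ± 0.23, and Sema3d at -0.14 ± 0.32. Sema3a, the founding collapsin of the family, had 1 count among 86451091 in the MOC1 libraries and 0 among 81847733 in the sham libraries. The 3 counts that a count of 0 allows correspond to 0.0367 CPM over the sham libraries, for counting error only, so no difference in Sema3a was detectable.

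Of the membrane-bound semaphorins, Sema4f rose in MOC1 and the other 4 did not pass. Sema4f is a transmembrane class 4 semaphorin on chromosome 6 (chr6:82911885-82939769, GRCm38, minus strand). It had 103.3, 104.1 and 136.8 CPM in MOC1 females 1 to 3 and 103.4, 98.2 and 122.4 CPM in MOC1 males, against 77.2, 83.5 and 78.3 CPM in sham females and 93.4 and 83.7 CPM in sham males 1 and 3. The lowest MOC1 library lay above the highest sham library. The means were 111 ± 15 CPM in MOC1 (SD, n = 6), against 83.2 ± 6.40 CPM in sham (SD, n = 5), a 1.34-fold level (log2 fold change 0.42 ± 0.10 SE, edgeR adjusted p = 0.0154). Of the per-kb level summed over the 11 listed semaphorins, Sema4f held 24.5% ± 3.72 in MOC1 libraries and 15% ± 2.66 in sham libraries. It thus took the first place among these 11 that Sema3b held in sham. Sema3b fell within that same sum, so the share does not measure Sema4f alone. Of the 20 pan-neuronal markers 9 were called higher in MOC1, with a median of 0.28, and with libraries scaled to them Sema4f stood at 0.15 with an adjusted p of 0.450 (edgeR).

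The promoters of 1 called gene in each direction, Sema4f (higher) and Efnb1 (lower), are shown since they are the called guidance genes with an entry among the RefSeq promoter sequences used (GRCm38.p6), which held 31 of the 40 genes. Each line gives 250 bases up to the RefSeq start in the direction of transcription, Sema4f from chr6:82939770-82940019 on the minus strand and Efnb1 from chrX:99135811-99136060 on the plus strand. Capitals mark the 5-base motif CCAAT on either strand, here found only as its reverse complement.
Sema4f: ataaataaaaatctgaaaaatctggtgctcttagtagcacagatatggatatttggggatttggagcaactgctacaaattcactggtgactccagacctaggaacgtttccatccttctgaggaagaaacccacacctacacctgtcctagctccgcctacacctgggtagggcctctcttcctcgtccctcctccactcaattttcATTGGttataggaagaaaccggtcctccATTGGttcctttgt
Efnb1: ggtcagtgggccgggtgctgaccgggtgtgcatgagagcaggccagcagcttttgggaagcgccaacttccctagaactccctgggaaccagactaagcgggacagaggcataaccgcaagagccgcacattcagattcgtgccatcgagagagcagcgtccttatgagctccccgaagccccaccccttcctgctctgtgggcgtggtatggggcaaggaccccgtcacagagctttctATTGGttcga
The Sema4f stretch has 46.0% G and C with 4 CpG dinucleotides, and the Efnb1 stretch 60.0% with 13, where the medians over 32851 promoters were 52.4% and 6. CCAAT occurred 2 times in Sema4f and 1 time in Efnb1, and in 33.9% of all promoters. Neither window held the motif GGGCGG, found in 32.7% of all promoters, or the motif TATAAA, found in 12.4%. The motif TGANTCA, present in 6.75%, and the palindrome CACGTG, present in 6.02%, were not in these windows either (both strands searched). These matches are letters in a window and not measured sites.

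Sema6d averaged 149 ± 10.9 CPM in MOC1, against 135 ± 6.39 CPM in sham (log2 fold change 0.14 ± 0.08), and Sema4d, a ligand of Plxnb1, averaged 83.8 ± 12.6 CPM in MOC1, against 72.9 ± 8.83 CPM in sham (0.19 ± 0.12). Sema5a stood at 0.29 ± 0.16. Sema7a, a membrane-anchored semaphorin that promotes axon growth through integrins, had 36.0, 46.9 and 26.3 CPM in MOC1 females and 23.0, 30.5 and 38.1 CPM in MOC1 males, against 167.6, 24.0 and 15.2 CPM in sham females and 34.0 and 44.3 CPM in sham males. A single library, sham female 1, set its fold change, which was -0.67 ± 0.42 with that library and 0.24 without it. With all libraries and no count filter, Sema7a was called lower (edgeR adjusted p = 0.000242). Sham female 1 also had the highest endothelial and Schwann cell marker sums, and their part in the Sema7a value was not tested.

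Plxna4, a class A plexin that pairs with neuropilins to receive class 3 semaphorins, was the plexin called among the 6 listed, at the edge of the threshold. It lies on chromosome 6 (chr6:32144268-32588192, GRCm38, minus strand). It had 216.1, 216.5 and 255.1 CPM in MOC1 females and 208.5, 218.6 and 257.3 CPM in MOC1 males, against 165.5, 199.4 and 145.3 CPM in sham females and 197.5 and 204.5 CPM in sham males. All MOC1 libraries lay above all sham libraries, but the gap between 204.5 and 208.5 CPM was small. The means were 229 ± 21.6 CPM in MOC1 (SD, n = 6), against 182 ± 25.8 CPM in sham (SD, n = 5), a 1.25-fold level (log2 fold change 0.32 ± 0.09 SE, edgeR adjusted p = 0.0477). The call was lost in 8 of 11 fits that each left out 1 library, with adjusted p of 0.0359 to 0.120, and held without MOC1 male 1, MOC1 male 2 or sham female 2. Scaled to the pan-neuronal markers the fold change was 0.04. Antisense genes overlap Plxna4, with 0 to 6 counts in a library, and the counting was strand-specific.

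The other 5 listed plexins and both neuropilins did not pass. Plxnd1 was at 246 ± 26.5 CPM in MOC1, against 239 ± 32.8 CPM in sham (log2 fold change 0.05 ± 0.10). It made up 50.3% ± 3.01 of the per-kb level summed over the 6 listed plexins in MOC1 and 51.4% ± 2.83 in sham. That sum leaves out Plxnb2, Plxnb3 and Plxnc1, the last at 82.0 to 117 CPM per kb in MOC1 and 74.9 to 87.2 in sham libraries. Plxna2 stood at 0.04 ± 0.09, Plxna1 at 0.11 ± 0.14 and Plxna3 at -0.29 ± 0.17. Nrp1, the neuropilin that binds Sema3a, averaged 74.9 ± 12.1 CPM in MOC1, against 78.4 ± 32.6 CPM in sham (-0.08 ± 0.20, and 0.23 without sham female 1, at 130.9 CPM). Nrp2, which binds Sema3f and other class 3 semaphorins, averaged 75.3 ± 16.6 CPM in MOC1, against 88.5 ± 12.1 CPM in sham (-0.23 ± 0.14). Of the 5 listed class 3 semaphorins that were tested and the receptors Nrp1, Nrp2 and Plxna1 to Plxna4, those called were thus Sema3b, lower, and Plxna4, higher in MOC1.

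None of the 2 netrins and 4 netrin receptors passed, and none was above 1.87 CPM per kb on average in either group. Ntn1, the classic diffusible netrin, averaged 0.899 ± 0.723 CPM in MOC1, against 2.34 ± 2.61 CPM in sham. It had no counts in MOC1 female 3 and MOC1 male 2 and its highest value, 6.92 CPM, in sham female 1. Ntn4 averaged 4.45 ± 1.13 CPM in MOC1, against 6.98 ± 4.79 CPM in sham. The attractive receptor Dcc averaged 3.15 ± 1.04 CPM in MOC1, against 3.70 ± 2.06 CPM in sham. Of the repulsive receptors, Unc5c averaged 30.7 ± 10.1 CPM in MOC1, against 27.5 ± 2.84 CPM in sham (log2 fold change 0.16 ± 0.19), and Unc5a had no counts in MOC1 female 3.

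The ephrin Efnb1 fell in MOC1, while the other 5 ephrins and all 6 Eph receptors did not pass. Efnb1 encodes ephrin-B1, a transmembrane ligand of EphB receptors, on the X chromosome (chrX:99136130-99148991, GRCm38, plus strand). It had 22.9, 25.8 and 28.9 CPM in MOC1 females and 19.4, 19.8 and 15.8 CPM in MOC1 males, against 45.4, 51.1 and 36.9 CPM in sham females and 36.8 and 41.4 CPM in sham males. No MOC1 library reached the lowest sham library. The means were 22.1 ± 4.76 CPM in MOC1 (SD, n = 6), against 42.3 ± 6.06 CPM in sham (SD, n = 5), a 0.528-fold level (log2 fold change -0.92 ± 0.15 SE, edgeR adjusted p = 0.000591). The fall was -0.78 ± 0.20 in females and -1.09 ± 0.22 in males, with adjusted p of 0.0345 and 0.0176 and an unadjusted p of 0.313 for the difference (edgeR). Of the 11 fits that each left out 1 library, 6 lost the Efnb1 call within females (without MOC1 female 1 or 2, sham female 1 or 2, or sham male 1 or 3). Within males 4 lost it (without MOC1 male 1 or 3, or sham male 1 or 3). Efnb1 held 20.1% ± 7.46 of the per-kb level summed over the 6 listed ephrins in MOC1 and 31.2% ± 6.03 in sham libraries. The satellite glia markers moved the same way with a median of -1.08, and with libraries scaled to them Efnb1 stood at 0.21 with an adjusted p of 0.427 (edgeR).

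Efna1, the ephrin with the highest level per kb, averaged 31.2 ± 8.96 CPM in MOC1, against 33.5 ± 6.27 CPM in sham (log2 fold change -0.12 ± 0.19). Efna5, which repels axons in map formation, averaged 22.7 ± 3.94 CPM in MOC1, against 18.5 ± 3.35 CPM in sham (0.28 ± 0.18). Efnb2 and Efnb3, the other B-class ephrins, stood at -0.16 ± 0.25 and -0.61 ± 0.54. Of the 6 Eph receptors, 5 had a log2 fold change below 0 and 1 above it, with a median of -0.48. Epha5 led these 6 in level per kb, and averaged 35.8 ± 7.53 CPM in MOC1, against 36.8 ± 8.96 CPM in sham (-0.05 ± 0.18). Its level per kb was 2.14 in MOC1 and 2.20 in sham. Ephb6, an Eph receptor not on the list, had 2.36 to 8.60 CPM per kb in MOC1 and 5.83 to 9.17 in sham libraries. Epha7 averaged 14.9 ± 3.91 CPM in MOC1, against 19.4 ± 2.68 CPM in sham (-0.42 ± 0.21), with MOC1 male 2 at 22.5 CPM and the other MOC1 libraries at 12.1 to 14.7 CPM. Epha4, which binds ephrins of both classes, stood at -0.59 ± 0.31. Ephb1 and Ephb2, receptors of ephrin-B1, stood at -0.54 ± 0.38 and -0.97 ± 0.92, and Ephb2 had no counts in MOC1 female 3 and MOC1 male 2. Epha3 had no counts in sham male 3 and 1 count in MOC1 female 3, and Efna3 had none in MOC1 female 3, sham female 1 and sham female 2.

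The 3 collapsin-response genes all had log2 fold changes above 0, and none passed. Dpysl3, the most abundant guidance gene, had 850.9, 843.2 and 906.1 CPM in MOC1 females and 905.3, 851.6 and 928.0 CPM in MOC1 males, against 727.5, 687.6 and 673.4 CPM in sham females and 846.5 and 849.0 CPM in sham males. All MOC1 females lay above all sham females, the lowest MOC1 male lay just above the highest sham male (851.6 against 849.0 CPM), and the groups overlapped across the sexes. The log2 fold change over both sexes was 0.21 ± 0.06 (edgeR adjusted p = 0.0549, and 0.00465 by DESeq2). Crmp1 had 134.0, 141.6 and 150.4 CPM in MOC1 females and 163.3, 156.9 and 173.9 CPM in MOC1 males, against 126.6, 132.4 and 114.4 CPM in sham females and 139.0 and 131.8 CPM in sham males. Its groups overlapped by 1 MOC1 library, and the log2 fold change was 0.23 ± 0.08 (edgeR adjusted p = 0.0872, and 0.0277 by DESeq2). Evc overlaps Crmp1 on the opposite strand with 13 to 218 counts in a library. Dpysl2, which binds tubulin and promotes microtubule assembly, averaged 214 ± 37.7 CPM in MOC1, against 191 ± 42.7 CPM in sham (0.16 ± 0.12).

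Within females 4 of the 39 guidance genes were called, Sema3b, Efnb1, Sema4f and Dpysl3, 2 higher and 2 lower, where 4.48% of all genes were called, 1.33% higher and 3.15% lower. Within males 2 were called, Sema3b and Efnb1, both lower, where 1.25% of all genes were called, 0.166% higher and 1.09% lower. Sema4f stood at 0.53 ± 0.14 in females and 0.29 ± 0.15 in males, and Dpysl3 at 0.32 ± 0.08 in females and 0.08 ± 0.09 in males, with unadjusted p of 0.251 and 0.0560 for the difference between the sexes (edgeR). No gene was called for that difference (0% of 16817 genes), although 708 genes had an unadjusted p under 0.05 by edgeR, 2 of them guidance genes (3 guidance genes by DESeq2). The 2 by edgeR were Dpysl2 (0.38 in females, -0.11 in males, unadjusted p = 0.0499) and, with the smaller p, Plxnb1, the receptor of Sema4d, at -1.15 ± 0.35 in females and 0.31 ± 0.39 in males (difference -1.46 ± 0.53, unadjusted p = 0.0132). Plxnb1 had 13.2, 14.6 and 5.44 CPM in MOC1 females and 16.9, 17.5 and 17.9 CPM in MOC1 males, against 31.8, 26.7 and 15.2 CPM in sham females and 15.6 and 12.4 CPM in sham males. Within females it was not called by the edgeR fit used here (adjusted p = 0.0748). DESeq2 called it lower there (adjusted p = 0.0430), as did some edgeR alternatives, such as no count filter (adjusted p = 0.0146). The count in females fell to 1 without MOC1 female 2 and to 2 without MOC1 female 3, sham female 1, sham male 1 or sham male 3. Within females the Sema4f call was lost in 5 and the Dpysl3 call in 6 of these 11 fits. The count in males fell to 1 without MOC1 male 1, MOC1 male 3, sham male 1 or sham male 3, with Sema3b called in both sexes in each of these fits.

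**Figure D4:**
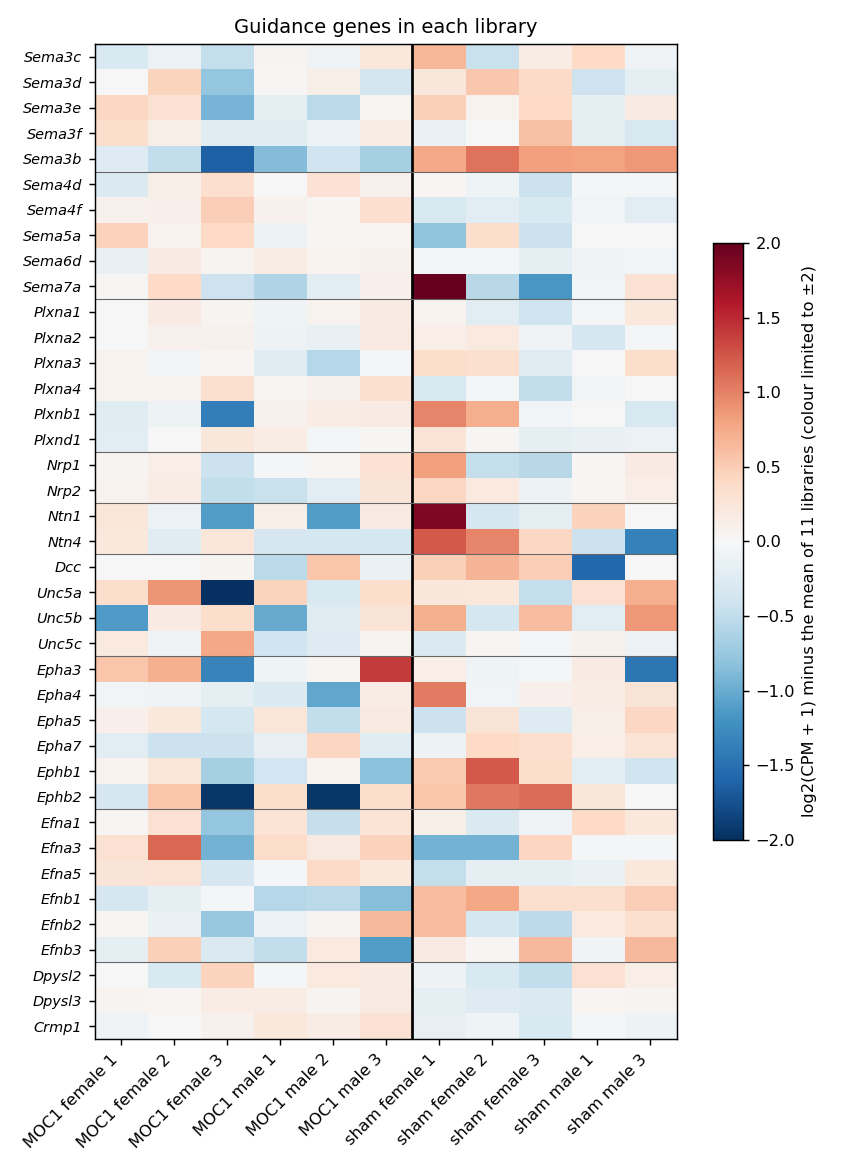
Level of the 39 tested guidance genes (rows, by role) in each of the 11 libraries (columns, MOC1 left of sham) as log2(CPM + 1) minus the mean over libraries, with red above and blue below the mean. Sema3b and Efnb1 differ in colour between the groups, and single libraries stand out in other rows, such as sham female 1 for Sema7a and Ntn1 and MOC1 female 3 for Unc5a and Ephb2.

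Single libraries carried many of the extreme values. Sham female 1 was the highest of the 11 libraries for 11 of the 39 guidance genes, among them Sema7a, Nrp1, Plxnb1, Ntn1 and Epha4. MOC1 female 3 was the lowest for 12, with 4 of the genes at 0 counts there. Sham female 1, MOC1 female 3 and MOC1 male 2 were also left out together. In that edgeR fit Sema3b (log2 fold change -1.48), Efnb1 (-1.0) and Sema4f (0.36) were called as before, with adjusted p of 2.84e-08, 0.000302 and 0.0245. Dpysl3 was called there as well, and Plxna4 was not (adjusted p = 0.103, edgeR). These 3 libraries were picked since they stood apart in these same data, so that fit is no independent check.

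A further 34 genes of the same families were read beside these, and 3 of the 32 tested were lower and none higher in MOC1, where 4.28% of all genes were lower and 2.34% higher, with a median log2 fold change of -0.25. Sema3g, another class 3 semaphorin, had 18.7 to 43.7 CPM in MOC1 libraries (median 28.3) and 54.6 to 113 CPM in sham libraries (median 86.3), without overlap (log2 fold change -1.50 ± 0.21, edgeR adjusted p = 0.000142). Plxnb3, a class B plexin, averaged 22.5 ± 7.40 CPM in MOC1, against 54.3 ± 4.69 CPM in sham (-1.27 ± 0.21, adjusted p = 0.000748). Plxnb2, another class B plexin, averaged 46.7 ± 8.61 CPM in MOC1, against 68.7 ± 9.70 CPM in sham (-0.54 ± 0.13, adjusted p = 0.0158, and 0.0507 without MOC1 female 2 and 0.0561 without sham female 2). With libraries scaled to the satellite glia markers, Sema3g stood at -0.43 and Plxnb3 at -0.23, neither called, and Plxnb2 turned to 0.56. The netrin receptor Neo1 (-0.32 ± 0.11) and the plexin Plxnc1 (0.22 ± 0.08), the receptor of Sema7a, had the smallest p of those not called. Epha1 and Efna4 had too few counts to test.

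Of 49 genes for co-receptors and intracellular partners of the guidance receptors, 3 were higher and 2 lower in MOC1, where 2.34% of all genes were higher and 4.28% lower, with a median log2 fold change of 0.09. Enah, an actin-assembly protein downstream of netrin and Robo receptors, averaged 173 ± 19.8 CPM in MOC1, against 132 ± 14.4 CPM in sham (0.40 ± 0.10, edgeR adjusted p = 0.0169, and 0.0581 without MOC1 female 2). Gsk3b, a kinase that phosphorylates collapsin-response proteins, averaged 475 ± 38.1 CPM in MOC1, against 390 ± 29.2 CPM in sham (0.27 ± 0.07, adjusted p = 0.0179, and up to 0.0907 without MOC1 female 1 or sham male 3). L1cam, an adhesion molecule that associates with Nrp1, averaged 957 ± 85.7 CPM in MOC1, against 813 ± 27.8 CPM in sham (0.22 ± 0.06, adjusted p = 0.0410), a call lost in 9 of 11 fits that left out 1 library and held without MOC1 female 1 or MOC1 male 2. With libraries scaled to the pan-neuronal markers these 3 stood at 0.12, -0.01 and -0.05. Dock1, a Rac activator downstream of Dcc, averaged 27.1 ± 9.69 CPM in MOC1, against 53.2 ± 6.96 CPM in sham (-0.95 ± 0.18, adjusted p = 0.00282). Rhoa, the small GTPase of growth cone collapse, averaged 185 ± 16.4 CPM in MOC1, against 229 ± 20.3 CPM in sham (-0.30 ± 0.08, adjusted p = 0.0219). The Rhoa call was lost without MOC1 female 2, MOC1 male 1, sham female 1 or sham male 1, with an adjusted p of up to 0.0696. With satellite glia scaling Dock1 stood at 0.12 and Rhoa at 0.81. Mical1 (0.38 ± 0.11), a plexin-associated oxidase, and Arhgef11 (0.28 ± 0.08) did not pass.

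A rescaling changes all genes of a library by a common factor, so it shifts their fold changes by similar but not equal amounts. It moves the point from which a gene is called higher or lower, and adjusted p can change as well. TMM, the scaling used throughout, put the median of all genes at -0.03. Scaling to the 20 pan-neuronal markers moved it to -0.30, and then 0 guidance genes were called higher and 4 lower, Sema3b (-1.82), Efnb1 (-1.20), Nrp2 (-0.52) and Epha7 (-0.69). Scaling to the 17 satellite glia markers moved it to 1.08, and then 24 guidance genes were called higher and 1, Sema3b, lower. Sema3b was the guidance gene called in the same direction under all 3.

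**Figure D5:**
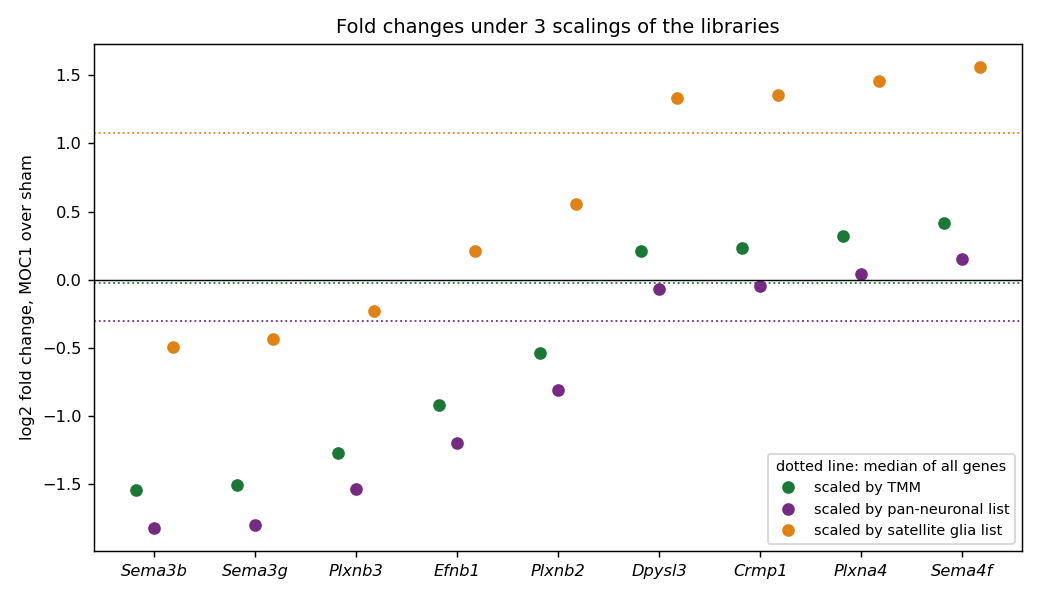
Log2 fold change of MOC1 over sham (vertical axis) for 9 genes of the semaphorin, plexin, ephrin and collapsin-response families under scaling by TMM (green), to the pan-neuronal markers (purple) and to the satellite glia markers (orange), with dotted lines at the median of all genes. Sema3b lies below 0 under each scaling (-1.55, -1.82 and -0.49), whereas Efnb1 lies at -0.92, -1.20 and 0.21.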

How the data were processed

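Poly(A)-selected RNA of 11 libraries was read single-end. The submitters' processing notes name Trimmomatic 0.35, STAR 2.7.1a, RSEM and the build GRCm38 (mm10). The deposited values are the authors' raw counts per gene, strand-specific per the file headers. Which gene annotation release was counted is not stated there. Of 55401 genes, 54349 identifiers matched GENCODE M21, all with the same coordinates, which gave exon lengths. The 4 rows that name no gene held 18.7% to 21.5% of counts and were left out.

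Counts were fitted in R 4.3.3 with edgeR 4.0.16 (filterByExpr by the 4 combinations of condition and sex, TMM, quasi-likelihood F test with sex as an additive term, Benjamini-Hochberg adjustment over 16817 genes, threshold 0.05). A 4-group fit with a shared spread gave values within each sex and their difference. SE is the log2 fold change divided by the root of F. CPM of single genes are after TMM, and marker sums are not. Marker sums were compared on the log2 scale by a two-sided exact permutation test (462 regroupings, adjusted over 6 lists), where the smallest p allowed is 0.00216. The fits were tested on simulated counts with known fold changes, the same spread for all genes and no common shift of cell markers. That test therefore does not cover a marker shift like the one between these groups. The guidance genes, lists and marker genes were chosen with earlier results of these data known. All called members are given in full, then those with an unadjusted p under 0.05 and the highest of each role, and of the companion lists up to 6 called and 2 uncalled genes by p. Sema7a, Plxnb1, Epha7 and the genes at 0 were added for single libraries or values seen. All pairs of libraries of a group differed beyond sampling noise (chi-square per degree of freedom 13.5 to 40.8).

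As alternatives, DESeq2 1.42.0, its size factors in edgeR, no count filter, scaling to marker lists, the satellite glia sum as a covariate, a replicate block, a fit with no sex term, each library left out, and 3 left out together (sham female 1, MOC1 female 3 and MOC1 male 2) were tried.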

Additional observations from a re-analysis of the deposited data

Results flagged for a closer look

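Dixon's test was applied to 106 groups of 5 or 6 values, and 11 had a library far from the rest, where chance gives about 1 in 20. All but 1 were among sham libraries, and 5 were sham female 1. In sham female 1, Sema7a stood at 168 CPM (others 15.2 to 44.3), Ntn1 at 6.92 CPM (others 0.722 to 1.97) and Epha4 at 18.4 CPM (others 8.12 to 10.4). The same library had the highest Schwann cell sum, 1504 CPM (others 1228 to 1288), and the highest endothelial and mural sum, 1472 CPM (others 241 to 408), and the part of these cells in the 3 gene values was not tested. In sham female 3, Sema3f was highest at 43.9 CPM (others 22.9 to 28.9), while Sema6d at 124 CPM (others 135 to 139) and Enah at 106 CPM (others 133 to 140) were lowest. Epha3 was at 0 CPM in sham male 3 (others 1.56 to 2.04). The satellite glia sum of sham female 2 was 11761 CPM (others 10194 to 10584). Among MOC1 libraries, Epha7 was highest in MOC1 male 2 at 22.5 CPM (others 12.1 to 14.7). None of these 8 genes but Enah was called between MOC1 and sham in the edgeR fit with TMM scaling and the count filter.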

How the results depend on the processing

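Sema3b and Efnb1 were called lower and Sema4f higher in each of the 11 fits that left out 1 library (Sema3b -1.67 to -1.38, Efnb1 -1.0 to -0.86, Sema4f 0.33 to 0.47 on the log2 scale), and with DESeq2, its size factors, no count filter, no sex term and the 3 libraries left out together. Over the fits that left out 1 library, guidance genes called higher ranged over 1 to 3, within females over 1 to 4, within males over 1 to 2, and the signalling genes called over 2 to 8, while all genes called ranged over 816 to 1129. DESeq2 called 4 guidance genes higher and 9 signalling genes, and no count filter called 9 guidance genes within females and 9 signalling genes. Scaling to the pan-neuronal list called 1930 genes in all, 0 guidance genes higher and 4 lower, 6 of the related families and 9 signalling genes. Scaling to the satellite glia list called 10144 genes, 24 guidance genes higher and 1 lower, 20 within females, 21 within males, 17 of the related families and 46 signalling genes. With the satellite glia covariate each of these counts was 0. By replicate number, the correlation of same-numbered deviations was -0.051 to 0.018, and 0 of 11 libraries correlated best with their own number. Deviations within groups of so few libraries are tied to each other, so these values cannot exclude a pairing. With the number as a replicate block 1090 genes were called, 1 guidance gene higher and 2 lower, and Plxna4 had an adjusted p of 0.0684 by edgeR. The endothelial and mural sum differed by -0.91 to -0.26 (log2) over the fits that left out 1 library, past the threshold without sham female 3 (adjusted p = 0.0457), and the macrophage sum by -0.22 to 0.17. The following log2 fold changes changed sign, and the cause was not tested. With satellite glia scaling they were Sema3c 0.77, Sema3d 0.93, Sema3e 0.79, Sema7a 0.42, Plxna3 0.83, Plxnb1 0.55, Nrp1 1.01, Nrp2 0.87, Ntn4 0.85, Dcc 1.08, Unc5a 0.93, Unc5b 0.49, Epha4 0.53, Epha5 1.06, Epha7 0.67, Ephb1 0.54, Ephb2 0.089, Efna1 0.97, Efnb1 0.21, Efnb2 0.92, Efnb3 0.45, Plxnb2 0.56, Neo1 0.79, Dock1 0.12 and Rhoa 0.81, in a fit where the median of all genes was 1.08. With pan-neuronal scaling, where that median was -0.30, they were Sema3f -0.23, Sema4d -0.093, Sema6d -0.14, Plxna1 -0.18, Plxna2 -0.24, Plxnd1 -0.23, Unc5c -0.11, Dpysl2 -0.12, Dpysl3 -0.066, Crmp1 -0.046, Plxnc1 -0.055, Gsk3b -0.0062, L1cam -0.051 and Arhgef11 -0.0028. With the satellite glia covariate they were Sema3d 1.27, Sema3e 0.75, Sema3b 0.13, Sema4d -0.32, Sema4f -0.17, Sema6d -0.042, Plxna1 -0.020, Plxna2 -0.11, Plxnb1 1.06, Plxnd1 -0.42, Nrp1 0.21, Nrp2 0.21, Ntn1 0.53, Ntn4 0.055, Dcc 0.97, Unc5a 3.38, Unc5c -0.68, Epha5 0.26, Epha7 0.33, Ephb1 1.50, Efna1 0.21, Efnb2 0.38, Efnb3 0.10, Dpysl2 -0.37, Plxnb3 0.63, Plxnb2 0.15, Plxnc1 -0.11 and Mical1 -0.17. Without the 3 libraries they were Sema3e 0.028, Sema7a 0.36, Nrp1 0.33, Ntn1 0.25, Unc5a 0.34, Unc5c -0.045, Epha5 0.046, Efna1 0.16 and Efnb2 0.24. Without the sex term it was Sema3f -0.014. Over the fits that left out 1 library the ranges that crossed 0 were Sema3d -0.27 to 0.059, Sema3f -0.032 to 0.18, Sema7a -0.90 to 0.24, Plxna2 -0.027 to 0.082, Nrp1 -0.19 to 0.23, Dcc -0.45 to 0.12, Unc5a -0.50 to 0.16, Unc5c -0.020 to 0.26, Epha5 -0.13 to 0.056, Efnb2 -0.28 to 0.093. The counts limit genes under about 1 CPM per kb, whose SE reached 1.35 on the log2 scale.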
